A study of Mus musculus with 4 samples.

Results

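Vitronectin (Vtn), calsyntenin 2 (Clstn2), metallothionein 3 (Mt3), the GABA and taurine transporter gene Slc6a13, the cation channel gene Trpm3 and the collagen XVIII gene Col18a1 were examined in single cells of the embryonic mouse nose. They are 6 of 32285 measured genes and were chosen by symbol, after earlier results of the same libraries had shown lower levels in mutants for pericyte-type and meningeal-type genes. Their difference between mutants and controls is therefore described, with no test. Whole noses were taken at embryonic day 14.5 and dissociated, and their transcripts were counted by 3-prime droplet sequencing as unique molecular identifiers (UMIs), tags that each mark 1 captured molecule. There were 2 control and 2 mutant libraries. The mutants carried the transgene Tg(Sox10-cre)1Wdr, which is active in the neural crest and its derivatives, on a C57Bl/6J background. According to the series design their genotype was Sox10cre;yap flox/WT;taz flox/flox, so that 1 wild-type Yap allele remained, and the controls were yap flox/flox;taz flox/flox without Cre. The sample labels instead name the controls C57Bl/6J, and this disagreement was not settled. The labels count 2 noses per genotype and do not say whether these came from separate litters, so that p-values measure the spread between these libraries only. More than 1 sequencing provider is named with no assignment to libraries, so a sequencing batch and the genotype cannot be told apart. A further sample that the labels mention was not analysed here.

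Mural cells wrap small vessels as pericytes or larger ones as smooth muscle, and the meninges are the fibroblast layers that cover the brain. In the head, facial mesenchyme, forebrain pericytes and forebrain meninges arise largely from the neural crest. Yap and Taz (Wwtr1) are transcriptional coactivators that bind DNA through TEAD factors. Vitronectin is a secreted matrix and plasma glycoprotein bound by integrins, and its transcript is widely used as a marker of brain pericytes. Collagen XVIII is a basement membrane proteoglycan whose C-terminal fragment is endostatin. Clstn2 encodes a cadherin-family membrane protein studied at synapses. Slc6a13 encodes GAT2, a transporter of GABA and taurine found in leptomeninges, liver and kidney. Trpm3 encodes a channel opened by heat and by pregnenolone sulfate, and it hosts the microRNA gene Mir204. Metallothionein 3 binds zinc and copper and is best known from brain.

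All 6 are protein-coding genes and lie on 6 chromosomes in GENCODE M21 on GRCm38. Vtn (ENSMUSG00000017344) lies at chr11:78499091-78502324 on the plus strand and Clstn2 (ENSMUSG00000032452) at chr9:97444395-98033181 on the minus strand. Col18a1 (ENSMUSG00000001435) lies at chr10:77052178-77166548 on the minus strand and Slc6a13 (ENSMUSG00000030108) at chr6:121300227-121337733 on the plus strand. Trpm3 (ENSMUSG00000052387) spans chr19:22139046-22995410 and Mt3 (ENSMUSG00000031760) chr8:94152607-94154146, both on the plus strand. Antisense genes overlap exons of Trpm3, and they held 36 and 67 UMIs over all retained cells. Summed over pairs of annotated exons the overlap is 505 and 351 bases, in which a base may count more than once. Slc19a1 overlaps Col18a1 on the opposite strand and shares no exon base with it.

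Promoter windows of RefSeq (GRCm38.p6, 250 bases before to 50 after a start site) were searched on both strands for GGAATG, the core motif of TEAD factors, because the targeted coactivators act through these factors. The motif, or its reverse CATTCC, was present for Vtn, Slc6a13 and Col18a1, 3 of the 6 genes. Over all genes with a window it was present for 4481 of 27025, or 16.6%. Some genes have several windows, and by window it was present in 3 of 10 for the members and in 14.7% of all 32851. The Col18a1 matches and a further Vtn match lay in annotated exons. A match describes these letters only. The stretches upstream of annotated exons that hold it are shown for Vtn and Slc6a13, which were found together in mesenchyme, in capitals at the motif. The motif lies 234 bases before the RefSeq start for Vtn and 91 bases before it for Slc6a13.
Vtn, chr11:78498870-78498951, plus strand: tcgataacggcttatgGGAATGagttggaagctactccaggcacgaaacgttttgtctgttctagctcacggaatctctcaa
Slc6a13, chr6:121300137-121300226, plus strand: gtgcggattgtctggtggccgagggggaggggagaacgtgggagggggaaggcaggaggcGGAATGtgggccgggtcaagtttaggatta

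Barcodes were retained from 500 detected genes upward and up to 10% mitochondrial UMIs. This left 4075 and 2474 control cells and 2995 and 4195 mutant cells, with 19767873 to 35331450 UMIs per library. Mural cells were those with a UMI of Pdgfrb and of Rgs5 or Kcnj8, and numbered 85 and 42 in control libraries 1 and 2 and 46 and 76 in mutant libraries 1 and 2. The mesenchyme gate held 2719, 1763, 2074 and 2713 cells after other marked types had been set aside. Of the mural cells, 74, 34, 40 and 60 also met the mesenchyme gate, and they counted as mural because the mural gate came first. Values below follow this order of libraries. Median depth was 9077, 9468.5, 11092.5 and 7744 UMIs in mural cells and 6545, 6666, 8307 and 5130 UMIs in mesenchyme. Yap1 was at 65.0, 65.2, 56.4 and 56.0 CPM, which are counts scaled to a fixed total per library, over all retained cells and Wwtr1 at 118, 145, 123 and 132 CPM. Reads from the 3-prime end may lie outside the floxed exons, so these levels check nothing. Pairs of libraries shared 3 to 5 barcodes. Free RNA is judged here by the immune gate of 62, 42, 38 and 66 cells, with median depths of 10173, 12032.5, 11314.5 and 8121.5 UMIs.

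Grouped beforehand as pericyte and meningeal genes lost in mutants, the 6 genes did not share 1 pattern across cell populations. Trpm3 overlapped between controls and mutants in mural cells and mesenchyme, Slc6a13 was nearly absent from mural cells, and none of the 6 was at 0 over all cells of a mutant. CPM compare a gene with itself across cells and are not used to rank genes against each other. The 8 gates compared are those with at least 20 cells in every library, which leaves out the small neuronal and muscle gates and unassigned cells. Vtn was highest in mural cells of the controls at 212 and 392 CPM, above the glial gate (64.1 and 10.9 CPM), mesenchyme (29.8 and 31.2 CPM) and the endothelial gate (0 and 55.2 CPM), and those 3 overlapped each other. Clstn2 was also highest in mural cells of the controls (143 and 200 CPM), then in epithelium (67.5 and 60.1 CPM) and mesenchyme (37.7 and 49.8 CPM), with no overlap between these neighbours. Col18a1 was highest in endothelium in every library at 404, 480, 539 and 369 CPM. Its mural, epithelial and glial levels overlapped in the controls, and mesenchyme lay below them at 14.4 and 15.2 CPM. Trpm3 levels of neighbours in rank overlapped in the controls from glia (100 and 62.9 CPM), mesenchyme (87.8 and 70.2 CPM) and epithelium down to osteoblasts (9.88 and 25.3 CPM), with immune cells below. Its glial levels lay wholly above those of chondrocytes (44.2 and 31.6 CPM), mural cells (39.2 and 6.88 CPM) and osteoblasts. Slc6a13 was highest on average in mesenchyme (11.6 and 8.45 CPM), which overlapped the endothelial gate (0 and 16.7 CPM) and lay above the immune gate (5.45 and 5.36 CPM). Mt3 was low in most gates and reached 115.9 CPM in immune cells of control 1, where 84 of 85 UMIs came from a single cell.

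**Figure D1:**
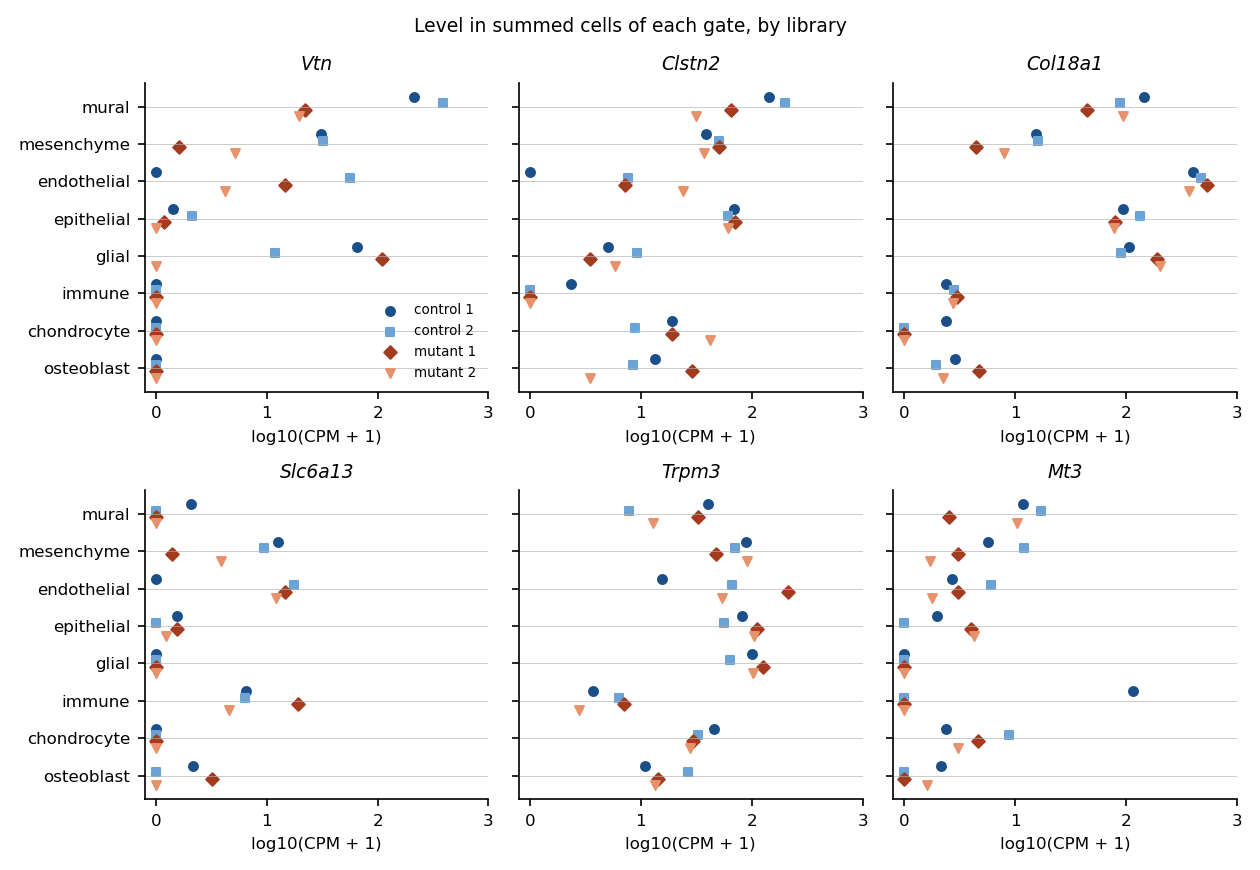
Level of each of the 6 genes in the summed cells of 8 gates, as log10(CPM + 1), 1 point per library. Vtn and Clstn2 reach their highest control levels in mural cells and Col18a1 in endothelium, and the mural and mesenchymal Vtn points of both mutants lie below those of both controls.

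Mural cells and mesenchyme were compared within the 2 control libraries. The members had been chosen as pericyte-type and meningeal-type genes after results of these libraries were known. Their p-values here are therefore no independent evidence of where they are expressed. Vtn, Clstn2 and Col18a1 were higher in mural cells, and Trpm3 and Slc6a13 were lower there. Of 14996 genes tested with edgeR, 5.65% were higher and 5.21% lower in mural cells. Vtn was 9.34-fold higher (log2 difference 3.22 ± 0.26 SE, edgeR adjusted p = 3.40e-07). Clstn2 was 3.86-fold higher (1.95 ± 0.16, edgeR adjusted p = 4.99e-07), and Col18a1 was 7.88-fold higher (2.98 ± 0.24, edgeR adjusted p = 3.18e-07). These 3 differences held in both control libraries and under every alternative run.

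The other members were weaker in that contrast. Trpm3 was lower in mural cells by a log2 difference of -1.61 ± 0.38 (edgeR adjusted p = 0.00965), which no longer passed without the library as a block (edgeR adjusted p = 0.0956). Slc6a13 gave -3.84 ± 1.01 (edgeR adjusted p = 0.0210) with a single mural UMI behind it, and without control 1 its edgeR adjusted p was 0.267. Mt3 gave 0.87 ± 0.62 and did not pass (edgeR adjusted p = 0.461). Among the genes that define the gate, Pdgfrb, Rgs5 and Kcnj8 differed by 2.32, 8.17 and 6.16, which the gate itself sets. All 15 mural markers were higher in mural cells, as were 3 of 11 tested brain pericyte genes, among them Tbx18 (1.93 ± 0.22, edgeR adjusted p = 1.17e-05), a transcription factor of mural and mesenchymal progenitors. Of 25 tested meningeal genes, 3 were higher and 7 lower in mural cells, with a median of 0.01 against -0.07 for all genes.

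Mural Vtn stood at 212 CPM in control 1 and 392 CPM in control 2, against 21.2 CPM in mutant 1 and 18.6 CPM in mutant 2. Both mutants lay far below both controls. The fitted log2 difference was -3.90 ± 0.36 (SE, n = 2 against 2), a 14.9-fold higher level in controls. At an edgeR adjusted p under 0.05, 0.0119% of 8438 genes were lower in mutants and none higher, and the 1 gene was Vtn itself. Since Vtn was chosen for this difference, the call is no evidence for it. The comparison held 587 genes at an unadjusted p under 0.05 and 18 calls with DESeq2. UMIs of Vtn were found in 30 of 85 cells in control 1 (35.3%, exact 95% binomial interval 25.2 to 46.4%) and in 22 of 42 in control 2 (52.4%, 36.4 to 68.0%). In the mutants they were found in 6 of 46 cells (13.0%, 4.94 to 26.3%) and in 8 of 76 (10.5%, 4.66 to 19.7%). Such intervals cover counting error only. The share was lower in both mutants, although the intervals of control 1 and mutant 1 touch.

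Positive cells also held fewer Vtn molecules in mutants. Their mean was 6.5 and 7.77 UMIs in control libraries and 2.33 and 1.75 UMIs in mutant ones. Cells with at least 3 Vtn UMIs numbered 22, 20, 2 and 2. With every cell thinned to 2000 UMIs, Vtn was found in 24.7, 40.5, 2.17 and 2.67% of mural cells, so the order of the groups was the same at equal depth. No immune cell of any library held a Vtn UMI, which allows up to 4.84, 7.14, 7.89 and 4.55% of cells with a detected UMI. In summed counts, fewer cells of a type and less RNA per cell cannot be told apart.

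Mural Clstn2 stood at 143 and 200 CPM in control libraries and at 63.6 and 30.6 CPM in mutant ones, without overlap. The fitted difference was -1.86 ± 0.34 on the log2 scale. It was found in 33 of 85 and 19 of 42 control cells (38.8 and 45.2%) and in 10 of 46 and 11 of 76 mutant cells (21.7 and 14.5%). Immune cells gave 1 Clstn2 UMI in all 4 libraries. Mural cells with Pdgfra, a gene of fibroblasts, were set apart, since 23, 13, 17 and 26 cells of the gate carried it. Without them Clstn2 was at 174, 243, 22.0 and 17.2 CPM, and in the cells with Pdgfra at 44.8, 112, 114 and 61.6 CPM. The groups were thus apart in cells without Pdgfra and overlapped in cells with it. The fitted difference was -3.38 without the Pdgfra cells and -1.27 without the 5% of cells with most UMIs.

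Col18a1 was at 144, 87.2, 43.9 and 93.2 CPM in mural cells, so that control 2 and mutant 2 overlapped. The fitted difference was -0.79 ± 0.36. Its share of positive cells did not overlap, with 25 of 85 and 16 of 42 cells in the controls (29.4 and 38.1%) against 6 of 46 and 13 of 76 in the mutants (13.0 and 17.1%). The difference in level was larger without the 5% of cells with most UMIs, at -2.13, and in mural cells that met no other gate besides mesenchyme, at -2.10. Mural cells that also met a gate other than mesenchyme numbered 7, 2, 4 and 8, and Col18a1 in the endothelial gate was at 369 to 539 CPM. The part of such cells in the difference was not tested further.

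The remaining members were scarce in mural cells. Slc6a13 gave 1 UMI, in control 1, and the 0 in the other libraries allows up to 7.14, 6.52 and 3.95% of cells with a detected UMI, which does not limit the share that express it. Trpm3 was found in 6, 3, 8 and 5 mural cells and stood at 39.2, 6.88, 31.8 and 12.0 CPM, which overlapped. Mt3 was found in 6, 1, 1 and 4 mural cells, and in control 2 its 7 UMIs lay in 1 cell. Of the 4 members that passed the filter on low counts in mural cells, Vtn and Clstn2 were lower in both mutants than in both controls, against 18% of all tested genes. Slc6a13 and Mt3 did not pass that filter.

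**Figure D2:**
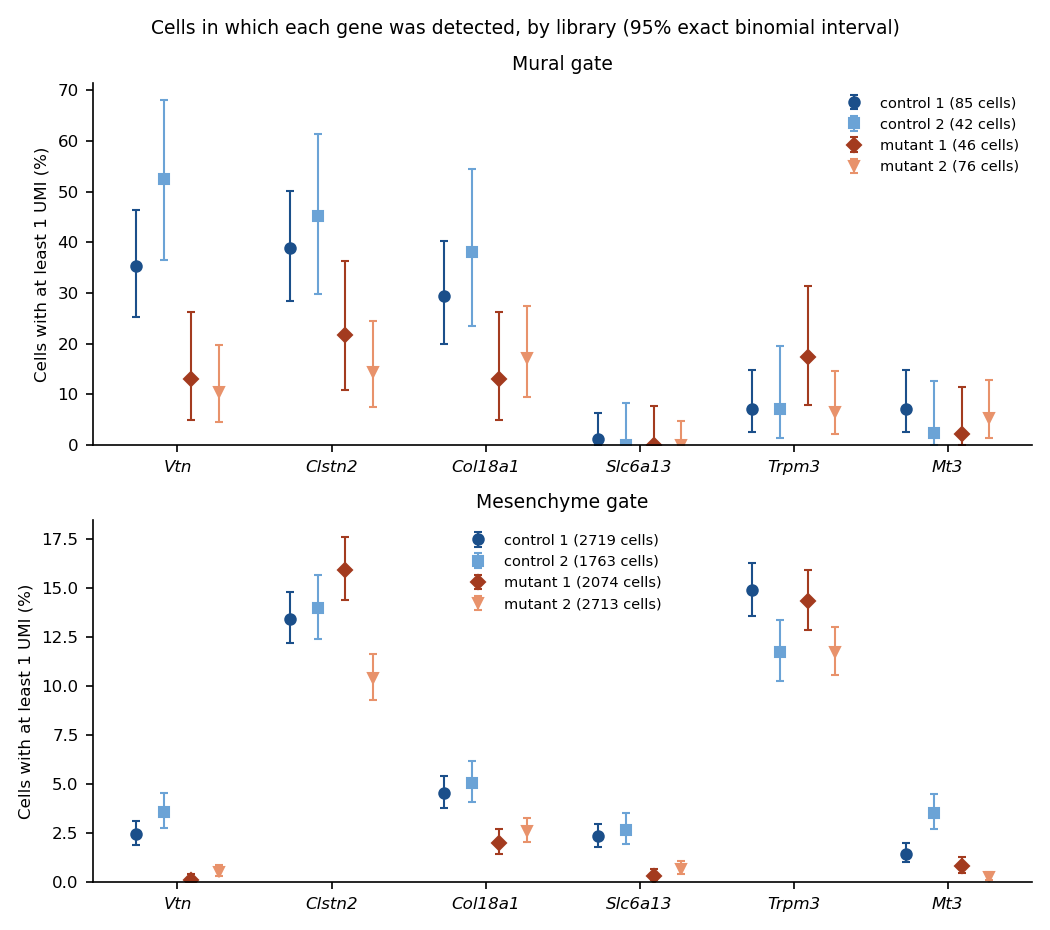
Percent of cells with at least 1 UMI of each gene in the mural gate (top) and the mesenchyme gate (bottom), 1 point per library with its exact 95% binomial interval. In mural cells Vtn, Clstn2 and Col18a1 are higher in both controls, and in mesenchyme Vtn, Col18a1, Slc6a13 and Mt3 are.

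Vtn, Clstn2 and Col18a1 were often found in the same mural cells of the controls, and seldom in those of the mutants. These 3 were set side by side after their values had been seen. All 3 were found together in 18 and 8 control cells (21.2 and 19%) and in no mutant cell. At least 2 of them were found in 27, 20, 3 and 6 cells, and at least 1 in 43, 29, 19 and 26. Of Vtn-positive cells, 23 of 30 and 16 of 22 also held Clstn2 in the controls, against 1 of 6 and 1 of 8 in the mutants. Col18a1 accompanied Vtn in 20, 12, 1 and 2 cells. Cells with at least 1 of the 3 genes differed less between the groups, at 50.6 and 69.0% against 41.3 and 34.2%, than cells with at least 2, at 31.8 and 47.6% against 6.52 and 7.89%. Detection of a pair depends on the detection of each gene. With independent detection, Vtn with Clstn2 would be expected in 11.6, 9.95, 1.30 and 1.16 cells, and Vtn with Col18a1 in 8.82, 8.38, 0.783 and 1.37. Clstn2 with Col18a1 was found in 20, 8, 1 and 3 cells, with 9.71, 7.24, 1.30 and 1.88 expected. The few pairs in mutants thus lay near these numbers, as did Clstn2 with Col18a1 in control 2 (8 against 7.24). No test of the pairing was made.

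**Figure D3:**
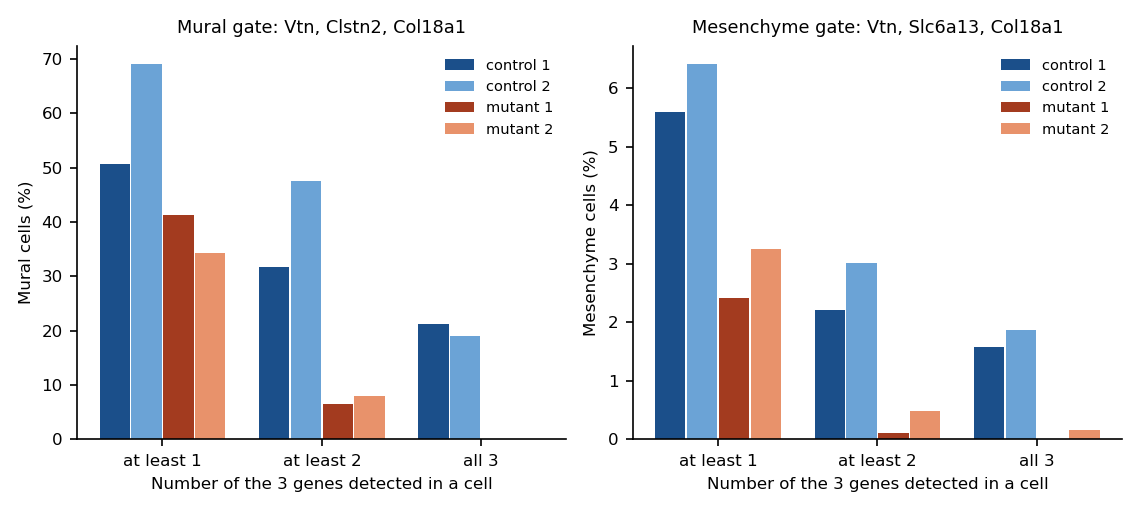
Percent of mural cells with at least 1, at least 2 or all 3 of Vtn, Clstn2 and Col18a1 (left) and of mesenchyme cells with Vtn, Slc6a13 and Col18a1 (right), 1 bar per library. All 3 genes together are found in 21.2 and 19% of control mural cells and in no mutant mural cell.

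Vtn-positive mural cells of the controls were set against Vtn-negative ones by the share of cells with a UMI of each listed gene. These genes were chosen after their values had been seen. Tbx18 was found in 26 of 30 and 21 of 22 Vtn-positive control cells and in 11 of 55 and 4 of 20 Vtn-negative ones. In mutants it was found in 1 of 6 and 2 of 8 Vtn-positive and in 5 of 40 and 12 of 68 Vtn-negative cells. Foxd1, a forkhead factor of stromal progenitors, was found in 21 of 30 and 17 of 22 Vtn-positive control cells against 1 of 6 and 0 of 8 in mutants. Zic1, a zinc-finger factor of the meninges, was found in 18 of 30 and 15 of 22 against 1 of 6 and 2 of 8. Thus the few Vtn-positive cells of the mutants, 6 and 8 in number, mostly lacked the 3 factors that accompanied Vtn in controls. These 3 were picked, and the lists they come from are counted in the next paragraph.

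Of 15 mural markers, 14 had a higher share in Vtn-positive than in Vtn-negative cells in each control and 12 did in each mutant, with 2 lower there. Of these, 2 are given as examples. Abcc9, a subunit of the potassium channel of pericytes, was found in 93.3 and 90.9% of Vtn-positive control cells and in all Vtn-positive mutant cells. Ndufa4l2, a mitochondrial protein typical of pericytes, was found in 93.3, 86.4, 100 and 100% of them. Crabp2, a retinoic acid-binding protein of mesenchyme, was rare in Vtn-positive cells (3.3, 0, 0 and 0%) and found in 29.1, 35.0, 42.5 and 35.3% of Vtn-negative cells. Of 12 brain pericyte genes, 7 had a higher share in Vtn-positive than in Vtn-negative cells of both controls. The same held for 9 of 30 meningeal genes, while 5 had a lower share. Of the 12 brain pericyte genes, 5 were higher and 4 lower in Vtn-positive cells of mutant 1, and 9 higher and 1 lower in mutant 2. Of the 30 meningeal genes, 11 were higher and 10 lower in mutant 1, and 9 higher and 10 lower in mutant 2. Median depth of Vtn-positive cells was 7767.5 UMIs in control 1, below the 9687 UMIs of its Vtn-negative cells, and 10163 UMIs in control 2, above 8798.5.

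Genes of related programs were then compared in mural cells between mutants and controls. With edgeR no listed gene apart from Vtn passed an adjusted p of 0.05. Of 8 tested brain pericyte genes, 6 were lower in both mutants than in both controls and 1 higher, with a median log2 difference of -1.80 against 0.00 for all genes. Over all tested genes 18% were lower and 18.9% higher in this way. The filter on low counts can be met by 1 group alone, for all genes alike. A listed gene, here and in the lists below, may therefore be tested only because that group is high. Tbx18 stood at 107 and 202 CPM in control libraries and at 15.1 and 30.6 CPM in mutant ones. Its difference was -2.69 ± 0.41 (edgeR adjusted p = 0.122), and it ranged from -3.67 to -2.21 over the reported and alternative fits. Zic1 was at 44.7, 101, 7.57 and 14.6 CPM (-2.60 ± 0.51, edgeR adjusted p = 0.211), with a range of -3.38 to -1.98 over these fits. Ifitm1, an interferon-induced membrane protein, overlapped at 75.2, 50.5, 90.8 and 67.9 CPM. Zic1, and below Fabp7, Actg2 and Col4a2, were chosen after their values had been seen or belong to control lists.

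Of 15 mural markers, 10 were lower in both mutants and none higher, with a median of -0.58. Among all tested genes 18% were lower. The marker with most UMIs was Ebf1, a transcription factor, at 1582, 1672, 1250 and 1477 CPM. Rgs5, a regulator of G-protein signalling in pericytes, was at 772, 1048, 569 and 365 CPM (-0.97 ± 0.24, edgeR adjusted p = 0.319). Its difference ranged from -1.34 to -0.61 over the reported and alternative fits. Pdgfrb, the receptor through which vessels recruit mural cells, was at 255, 294, 179 and 246 CPM, and Kcnj8 overlapped at 255, 170, 107 and 205 CPM. Rgs5, Pdgfrb and Kcnj8 define the gate, so cells without them could not enter it. Smooth muscle genes lay the other way, with 6 of 8 tested higher in both mutants and none lower (median 0.51, 18.9% of all genes higher). Smooth muscle actin (Acta2) was at 891, 468, 1110 and 1150 CPM (0.71 ± 0.25, edgeR adjusted p = 0.572), and gamma smooth muscle actin (Actg2) at 28.3, 4.59, 107 and 65.2 CPM (2.11 ± 0.50, edgeR adjusted p = 0.311). Over the reported and alternative fits the differences ranged from 0.33 to 1.26 for Acta2 and from 1.59 to 4.16 for Actg2. Tropomyosin 1 (Tpm1) was at 680, 656, 680 and 809 CPM.

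Against 18% lower and 18.9% higher among all tested genes, basement membrane genes, the class of Col18a1, were lower in both mutants for 7 of 14 tested and higher for 1. The collagen IV chain genes Col4a1 (1137, 1250, 583 and 921 CPM) and Col4a2 (698, 722, 386 and 471 CPM) were among the lower ones, with edgeR adjusted p of 0.428 and 0.260. Sparc, a collagen-binding matrix protein, was at 1318, 1016, 1328 and 1841 CPM. Of 16 tested meningeal genes, 8 were lower in both mutants and 4 higher, the latter near the share of all genes. The list shares Foxc1, Tbx18, Zic1 and Slc6a20a with the brain pericyte genes. S100a6, a calcium-binding protein, was at 343, 126, 371 and 358 CPM and Igfbp2, a binding protein of insulin-like growth factors, at 204, 216, 291 and 224 CPM. Without control 1, the fitted S100a6 difference was 1.52.

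Receptors and relatives of the members were compared in mural cells from lists. Of 4 tested integrin chains and partners of vitronectin, 1 was lower in both mutants and none higher, a count too small to read against the background. Integrin beta 1 (Itgb1) was at 588, 562, 440 and 498 CPM (-0.31 ± 0.15, edgeR adjusted p = 0.779), and integrin beta 5 (Itgb5) at 93.7, 84.9, 90.8 and 93.2 CPM. Of 6 tested relatives, 1 was higher in both mutants and none lower, with a median of -0.02. For all tested genes the shares were 18.9% higher and 18% lower. The metallothionein gene Mt1 was at 124, 94.0, 42.4 and 98.5 CPM, with a fitted difference of -1.39 without mutant 2. Trpm7 was at 92.6, 108, 77.2 and 93.2 CPM.

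**Figure D4:**
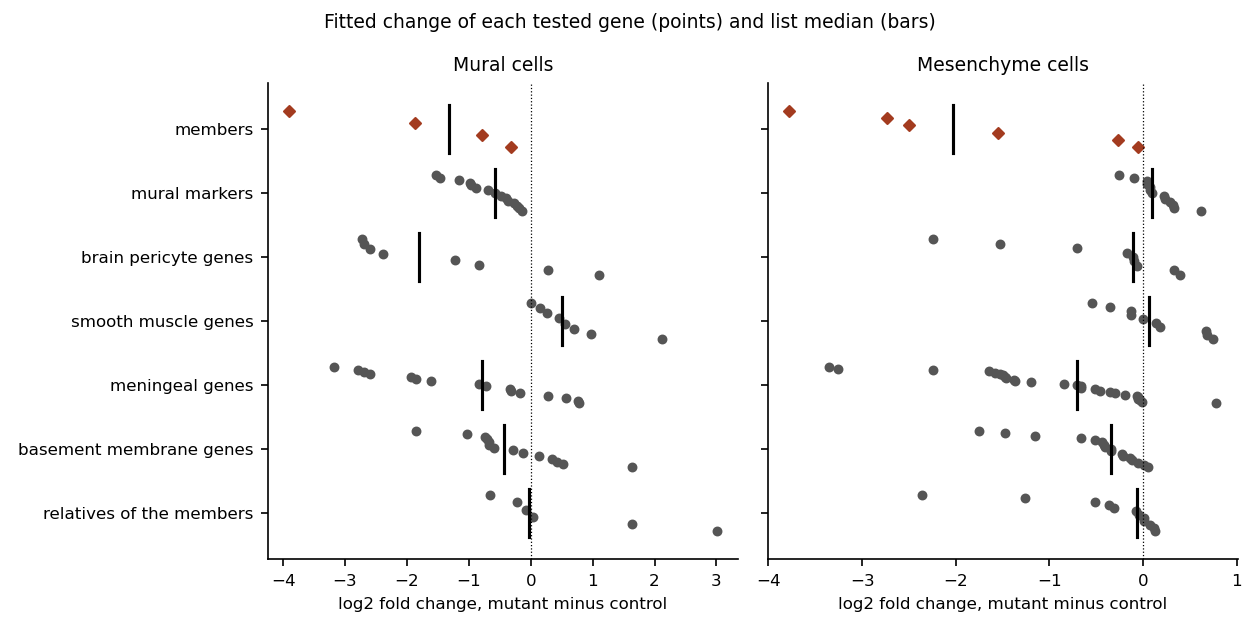
Fitted log2 difference, mutant minus control, of each tested gene (points) and the median of each list (bars) in mural cells (left) and mesenchyme (right). Brain pericyte genes lie mostly below 0 in mural cells and smooth muscle genes mostly above it, while in mesenchyme the meningeal list lies mostly below 0.

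Other cell types may contribute RNA to the mural gate, so their markers were summed there. The 16 forebrain neural genes summed to 85.0, 202, 43.9 and 30.6 CPM, which was lower in both mutants, and 9, 11, 12 and 12 of them were at 0. The largest part of it in the controls was Fabp7, a fatty acid-binding protein of radial glia also found in other cells. Fabp7 was at 66.4, 147, 10.6 and 13.3 CPM (-3.07 ± 0.47, edgeR adjusted p = 0.122). Its difference ranged from -3.60 to -2.46 over the reported and alternative fits. Emx2, a homeobox factor, was at 10.9, 32.1, 15.1 and 14.6 CPM. Emx1, Eomes, Neurod2, Neurod6, Fezf2, Gad1, Gad2, Sox1 and Neurog2, which define forebrain progenitors and neurons, were at 0 in mural cells of all 4 libraries. Brain vessel endothelial genes summed to 333, 147, 170 and 204 CPM in mural cells, and dissociation stress genes to 2424, 2791, 2493 and 3298 CPM, and both overlapped between groups. Over all retained cells the forebrain list summed to 196, 106, 219 and 79.3 CPM, which also overlapped. The part of these transcripts, and of how much brain-side tissue each dissection held, in the differences was not tested.

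Mesenchymal Vtn stood at 29.8 CPM in control 1 and 31.2 CPM in control 2, against 0.605 CPM in mutant 1 and 4.12 CPM in mutant 2. Its fitted difference was -3.78 ± 0.50 on the log2 scale, close in size to that in mural cells. It was found in 67 of 2719 and 63 of 1763 control cells (2.46 and 3.57%) and in 3 of 2074 and 15 of 2713 mutant cells (0.145 and 0.553%). Both mutants lay below both controls, and mutant 1 lay lowest. The difference was -2.94 without mutant 1 and -5.67 without mutant 2.

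Slc6a13 was at 11.6, 8.45, 0.385 and 2.84 CPM in mesenchyme, with 225, 109, 7 and 44 UMIs. Both mutants were lower, with a fitted difference of -2.73 ± 0.59 that was -1.88 without mutant 1 and -4.72 without mutant 2. It was found in 64, 47, 7 and 19 cells (2.35, 2.67, 0.338 and 0.700%). In the immune gate, whose cells were deeper, it was found in 3, 3, 4 and 1 cells. These shares of 4.84, 7.14, 10.5 and 1.52% lay above the mesenchymal share in each library. The immune level was 5.45, 5.36, 18.1 and 3.56 CPM, against 6.85, 6.98, 1.37 and 2.49 CPM over all retained cells. It was thus lower in the controls and higher in the mutants. Whether the immune UMIs were free RNA was not tested, and a low share of Slc6a13-positive cells is not by itself read as expression. In the controls the mesenchymal molecules were concentrated in few cells, as given below. In mutant 1 its 7 UMIs lay in 7 cells, and in mutant 2 its 44 UMIs lay in 19 cells, against 1.00 to 2.25 UMIs per positive immune cell.

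Col18a1 in mesenchyme was at 14.4, 15.2, 3.46 and 7.03 CPM, lower in both mutants (-1.55 ± 0.28). Positive cells numbered 124, 89, 42 and 71 (4.56, 5.05, 2.03 and 2.62%), against 1.61, 2.38, 2.63 and 1.52% of immune cells. The share in mutant 1 was thus not above that of immune cells. The immune shares come from only 62, 42, 38 and 66 cells, which were deeper. In CPM the immune gate was at 1.36, 1.79, 2.01 and 1.78, below mesenchyme in every library. Mt3 was at 4.74, 11.1, 2.03 and 0.709 CPM, also lower in both mutants (-2.50 ± 0.53, and -1.78 without control 2), in 40, 62, 17 and 7 cells. Thinned to 2000 UMIs per cell, its shares overlapped between the groups.

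Clstn2 and Trpm3 overlapped between the groups in mesenchyme. Clstn2 was at 37.7, 49.8, 50.1 and 35.8 CPM (-0.05 ± 0.19), in 365, 246, 330 and 282 cells, or 10.4 to 15.9% of them. Trpm3 was at 87.8, 70.2, 46.2 and 89.7 CPM (-0.26 ± 0.26), in 14.9, 11.7, 14.3 and 11.7% of cells. Mutant 1 was low in Trpm3 CPM and not in its share, and its highest single cell held 35 UMIs, against 130, 136 and 231 in the others. Of the 6 members, 4 were lower in both mutants than in both controls, against 14.4% of 15896 tested genes. At an edgeR adjusted p under 0.05, 0% of genes were called in mesenchyme, with 1198 at an unadjusted p under 0.05 and 42 with DESeq2.

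The difference of the Clstn2 change between mural cells and mesenchyme was -1.84 ± 0.26, given as a description. In that interaction 0.0667% of 14996 genes showed a lower change in mural cells and 0.02% a higher one at an edgeR adjusted p under 0.05. Tbx18 was among them, at -2.60 ± 0.36 (edgeR adjusted p = 0.0118). In mesenchyme Tbx18 stood at 36.4, 39.5, 39.9 and 34.4 CPM, with overlapping groups.

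Vtn, Slc6a13 and Col18a1 were found together in mesenchymal cells of the controls, a trio also chosen after its values had been seen. All 3 were found in 43 and 33 control cells and in 0 and 4 mutant cells, and at least 2 in 60, 53, 2 and 13. Of Slc6a13-positive cells, 55 of 64 and 42 of 47 held Vtn in the controls, 2 of 7 and 9 of 19 in the mutants. With independent detection this pair would be expected in 1.58, 1.68, 0.0101 and 0.105 cells. It lay above these numbers in the mutants too, in few cells, and no test of it was made. Clstn2 did not join this group in the controls, as only 4 of 67 and 4 of 63 Vtn-positive control cells held it. In the mutants 2 of 3 and 4 of 15 did. Trpm3 was found in 31 of 67, 26 of 63, 3 of 3 and 12 of 15 Vtn-positive cells. Among all mesenchyme cells its share was 14.9, 11.7, 14.3 and 11.7%. In the controls Vtn was thus found with Clstn2 in mural cells and with Slc6a13 in mesenchyme.

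These mesenchymal cells carried meningeal genes. In both controls 24 of 30 meningeal genes had a higher share of positive cells in Vtn-positive than in Vtn-negative mesenchyme, and 5 had a lower one. Zic1 was found in 91.0, 85.7, 100 and 46.7% of Vtn-positive cells against 5.7, 11.2, 4.1 and 5.3% of the rest. Foxc1, a forkhead factor needed for meninges, was found in 73.1, 74.6, 66.7 and 66.7% against 10.6, 10.9, 8.4 and 7.9%. The organic anion transporter gene Slc22a6 was found in 71.6, 41.3, 33.3 and 46.7% of Vtn-positive cells and in at most 0.4% of the others. Mutant 1 had 3 Vtn-positive cells, so its shares rest on those. Of 15 mural markers, 9 had a higher share in Vtn-positive mesenchyme of both controls and 2 a lower one. Of 12 brain pericyte genes, a list that shares genes such as Zic1 and Foxc1 with the meningeal one, 8 had a higher share in both and none a lower one. Rgs5 was found in 3.0, 3.2, 0 and 0% of these cells against 0.4, 0.4, 1.2 and 1.0% of the rest, and Ndufa4l2 in 25.4, 15.9, 0 and 0% against 4.3, 0.8, 4.0 and 3.3%. Among Slc6a13-positive cells, 23 of 30 meningeal and 16 of 17 basement membrane genes had a higher share in both controls. Vtn-positive and Slc6a13-positive cells were deeper than the rest in every library, with medians of 8723, 9562, 9193 and 6964 UMIs for Vtn against 6502.5, 6651, 8306 and 5119.5.

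Cells with at least 8 of the 30 meningeal genes, a number set after seeing the data, made up 5.26, 9.42, 3.38 and 3.24% of mesenchyme (143, 166, 70 and 88 cells). With at least 10 genes the share was 3.02, 5.79, 0.868 and 1.81%. Both mutants lay below both controls under these limits and after thinning. Cells with at least 8 genes held 98.1, 96.3, 100 and 95.3% of all mesenchymal Vtn UMIs and 94.2, 97.2, 28.6 and 90.9% of those of Slc6a13. They held 69.5, 71.9, 22.2 and 26.6% of the Col18a1 UMIs and 52.9, 68.8, 16.6 and 48.9% of the Trpm3 UMIs. For Clstn2 the part was 5.05 to 9.50%, so that most of it lay in other mesenchyme.

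Since meningeal genes themselves tended to be lower in mutants, the number of such cells and the level within them cannot be told apart by this grouping. Within cells with at least 8 meningeal genes, Vtn was at 361, 216, 12.0 and 66.4 CPM, and Slc6a13 at 135, 59.3, 2.18 and 43.5 CPM. Col18a1 was at 123, 78.9, 15.3 and 31.6 CPM there, also lower in both mutants. Trpm3 was at 573, 348, 153 and 740 CPM, which overlapped. Within cells with at least 10 genes, Vtn was found in 72.0, 53.9, 16.7 and 22.4% and Trpm3 in 40.2, 38.2, 38.9 and 46.9%. That group is open-ended and unlike between libraries, since it reached 21 and 23 genes in the controls, 14 in the 18 cells of mutant 1 and 24 in mutant 2. In cells with 8 or 9 genes the groups overlapped, with Vtn in 3 of 61, 1 of 64, 0 of 52 and 1 of 39 cells and Slc6a13 in 4, 1, 0 and 1 of them. In mesenchyme with fewer than 8 meningeal genes, the fitted Col18a1 difference was -0.28, at 4.77, 4.95, 2.84 and 5.48 CPM, and that of Trpm3 was 0.28.

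**Figure D5:**
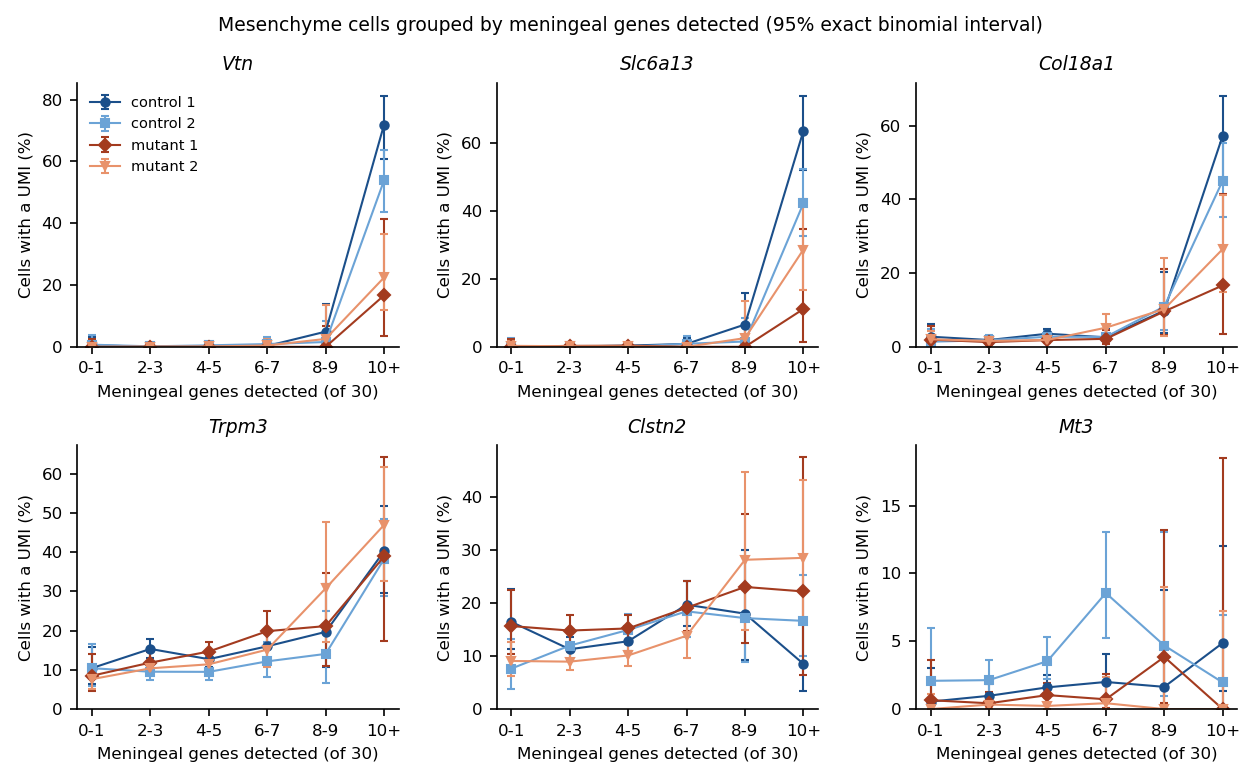
Percent of mesenchyme cells with a UMI of each gene, with exact 95% binomial intervals, in cells grouped by the number of 30 meningeal genes detected, 1 line per library. In cells with at least 10 genes, an open-ended group, Vtn, Slc6a13 and Col18a1 are higher in both controls (Vtn 72.0 and 53.9% against 16.7 and 22.4%), while in cells with 8 or 9 genes they overlap.

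Of 27 tested meningeal genes, 18 were lower in both mutants in mesenchyme and none higher, with a median log2 difference of -0.70 against 0.00 for all genes. Over all tested genes 14.4% were lower and 25.7% higher in both mutants. None passed with edgeR. The list sum was 2046, 2041, 1693 and 1779 CPM. Igfbp2 was at 512, 493, 439 and 467 CPM, and S100a6 overlapped at 383, 205, 313 and 278 CPM. Chosen after their values had been seen, Slc22a6 was at 9.13, 4.96, 0.110 and 1.48 CPM (-3.26 ± 0.69, edgeR adjusted p = 0.380) and Zic1 at 24.5, 44.4, 8.57 and 15.9 CPM (-1.53 ± 0.33, edgeR adjusted p = 0.380). The laminin chain gene Lama1 was at 20.3, 27.0, 7.97 and 9.41 CPM (-1.48 ± 0.18, edgeR adjusted p = 0.127). Over the reported and alternative fits the differences ranged from -5.95 to -2.31 for Slc22a6 and from -2.02 to -1.01 for Zic1. They ranged from -1.68 to -0.47 for Lama1 and from -0.41 to 0.49 for S100a6.

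Basement membrane genes in mesenchyme were lower in both mutants for 9 of 17 and higher for 1. Among all genes tested in mesenchyme 14.4% were lower and 25.7% higher. Col4a5, a collagen IV chain gene chosen after its values had been seen, was at 31.9, 28.8, 12.6 and 15.6 CPM (-1.15 ± 0.14, edgeR adjusted p = 0.127). Its difference ranged from -1.30 to -0.61 over the reported and alternative fits. Sparc was at 1148, 1085, 866 and 1244 CPM, and the laminin chain gene Lama4 overlapped at 134, 157, 151 and 135 CPM. Mural markers in mesenchyme had a median of 0.10, with 1 of 13 lower in both mutants and 3 higher. Integrin beta 1 (263, 310, 257 and 299 CPM) and integrin beta 5 (98.9, 97.9, 97.2 and 112 CPM) overlapped or lay close in mesenchyme, and 0 of 7 receptor genes were lower in both mutants.

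The nearest relatives of the members were compared in mesenchyme from a list. Of 12 tested, 4 were lower in both mutants and 1 higher, with a median of -0.06. For all tested genes the shares were 14.4% lower and 25.7% higher. Clstn1, the paralog of Clstn2, was at 47.6, 43.9, 44.2 and 44.9 CPM, and Trpm7 at 112, 124, 127 and 116 CPM. The metallothionein gene Mt2 was at 8.30, 10.5, 2.80 and 5.29 CPM (-1.26 ± 0.29, edgeR adjusted p = 0.432). Mt2 was chosen after its values had been seen, and its difference ranged from -1.77 to -0.56 over the reported and alternative fits. Brain vessel endothelial genes summed to 152, 163, 227 and 221 CPM in mesenchyme, higher in both mutants, and forebrain neural genes to 36.4, 54.1, 51.7 and 55.7 CPM, which overlapped. Their part in the mesenchymal differences was not tested.

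Over all retained cells Vtn was at 23.1, 35.0, 3.26 and 3.16 CPM, Mt3 at 6.79, 9.16, 1.99 and 1.56 CPM and Slc6a13 at 6.85, 6.98, 1.37 and 2.49 CPM. These 3 and Col18a1 (47.0, 42.0, 39.2 and 40.3 CPM) were lower in both mutants, 4 of 6 members against 13% of 18080 genes. Clstn2 (43.4, 51.3, 51.6 and 37.1 CPM) and Trpm3 (74.9, 86.4, 69.4 and 78.3 CPM) overlapped. At an edgeR adjusted p under 0.05, 0% of genes were called over all cells, with 883 at an unadjusted p under 0.05 and 30 with DESeq2. The difference of Col18a1 over all cells was -0.20 ± 0.084. Its endothelial levels overlapped, its epithelial levels were lower in both mutants (94.2, 134, 78.4 and 76.6 CPM), and its glial levels were higher in both (106, 90.2, 189 and 202 CPM). Vtn in glia was at 64.1, 10.9, 109 and 0 CPM from 7, 1, 7 and 0 cells, so that Vtn-positive glia were found in mutant 1.

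Genes with profiles most like each member were sought over 34 population-by-library sums, on log2(CPM + 10), among 17379 genes. Sums of 1 library share its depth, and the correlations are given as descriptions. Profiles near that of Vtn included Atp1b2 (r = 0.836) and B130024G19Rik (0.816). The nearest to Clstn2 were Parm1 (0.811), Notch3 (0.789), a Notch receptor of mural cells, and Fjx1 (0.786). Col18a1 was closest to Cd151 (0.941), Mmp15 (0.923) and Sox13 (0.922). Trpm3 was closest to Ppdpf (0.779), Arid4b (0.773) and Pik3r3 (0.772), and Slc6a13 to Gbp8 (0.711), Fcho2 (0.694) and Hlx (0.685). Mt3 was closest to Prg4 (0.761), Calcr (0.742) and Mmp9 (0.740). No member was among the 3 nearest of another, and the highest correlation between members was 0.535, for Trpm3 and Col18a1.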

How the data were processed

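The 4 libraries of 10x 3-prime single-cell RNA sequencing were all used. The authors deposited raw UMI counts per gene and barcode, made with Cell Ranger 8.0.1 per the file headers, whereas the submitters' processing notes list Cell Ranger 4, Seurat 4.3.0 and the build mm10. The matrices were already filtered to cells. Cells were retained at 500 or more genes and 10% or less mitochondrial UMIs, and placed in exclusive gates by marker UMIs. No doublet caller was run. In its place results were repeated without the 5% of cells with most UMIs and with mural cells of no other gate. Here and below, the mesenchyme gate did not count as another gate. Counts were summed per library and gate. The quasi-likelihood test of edgeR 4.0.16 in R 4.3.3 was applied after filterByExpr and TMM scaling, with Benjamini-Hochberg adjustment over all genes tested at 0.05. DESeq2 1.42.0 was an alternative. The mural against mesenchyme contrast had the library as a block. Shares carry exact 95% binomial intervals, a count of 0 is taken to allow up to 3 counts, and thinning drew 2000 UMIs per cell. With 2 against 2 libraries an exact permutation test cannot go below p = 0.33.

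The members and gene lists were chosen with earlier results of these data known. Genes named were the 6 members, the gate genes, the 3 nearest profiles of each member and, from each list, up to 4 genes past the threshold or else the 2 with most UMIs. Other names were chosen after their values were seen. Some named results are not reported here. Lists for vessel endothelium and dissociation stress are given as sums. A list of sex-linked genes served only as a control, and 1 of its 5 genes was tested between mutants and controls, where it did not pass. Fits were tested on simulated counts, and analyses used Python 3.11.15 with numpy 2.4.6 and scipy 1.17.1.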

Additional observations from a re-analysis of the deposited data

Results flagged for a closer look

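The mutant-minus-control change differed between mural cells and mesenchyme for 2 listed genes by an interaction term in edgeR. For Tbx18 the mural change minus the mesenchymal change was -2.60 on the log2 scale (SE 0.36, edgeR adjusted p = 0.0118). Its mural level was lower in both mutants, whereas its mesenchymal levels overlapped. For Hspa1a, a heat-shock gene on the dissociation stress list, it was -1.46 (SE 0.26, edgeR adjusted p = 0.0383). Hspa1a was at 126, 36.7, 148 and 128 CPM in mural cells and at 15.2, 4.11, 44.2 and 45.8 CPM in mesenchyme of control 1, control 2, mutant 1 and mutant 2. The Hspa1a call was lost without control 1 (edgeR adjusted p = 0.187) and with stricter limits on cells (edgeR adjusted p = 0.116).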

How the results depend on the processing

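With 2 libraries a group, the number of genes called between mutants and controls moved with most settings. In mural cells (1 gene) it was 240 without a filter on low counts, 17 without the 5% of cells with most UMIs, 18 with DESeq2, 6 without Pdgfra cells and 41 in cells of no other gate. Leaving out 1 library gave 23 to 157. In mesenchyme (0 genes) it was 548 without the filter and 42 with DESeq2, and 0 to 733 with 1 library left out, the latter without control 1. Over all cells (0 genes) it was 10, 30 and 0 to 410 in the same order, again highest without control 1. The 1628 calls between mural cells and mesenchyme became 964 to 2020 with 1 library left out. The 13 interaction calls became 53 with DESeq2 size factors, 133 without the filter, 7 with stricter cells, 101 without the 5% of cells with most UMIs, 143 without Pdgfra cells, 93 with at least 3 UMIs of Rgs5 and Kcnj8, 126 in cells of no other gate, 66 with wide mesenchyme, and 72 to 141 with 1 library left out. The cause was not tested. Same-numbered libraries did not deviate together (correlations of -0.013, 0.003 and -0.035 in mural cells, mesenchyme and all cells), so the numbers name libraries only. With a replicate block 73 genes were called in mural cells, 21 in mesenchyme and 0 over all cells.

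Some small differences changed sign. Mt3 turned to -1.82 between mural cells and mesenchyme without the 5% of cells with most UMIs, and Trpm3 to 0.0251 over all cells with stricter cells. In mural cells Ifitm1 turned to -0.14 (no other gate), Itgb5 to -0.41 (without Pdgfra) and -0.25, Igfbp2 to -0.081 and Trpm7 to 0.10 (each with at least 3 UMIs of Rgs5 and Kcnj8). In mesenchyme S100a6 turned to 0.0302 (stricter cells), 0.0364 (replicate block) and 0.17 (fewer than 8 meningeal genes), the last of which also turned Lama4 to 0.049 and Tbx18 to 0.41. Stricter cells turned Trpm7 to -0.0009. With 1 library left out the mural ranges were -1.11 to 0.43 for Emx2 and -0.0367 to 0.11 for Itgb5. The mesenchymal ranges were -0.41 to 0.49 for S100a6, -0.397 to 0.10 for Sparc, -0.17 to 0.0622 for Lama4, -0.0786 to 0.0844 for Trpm7, -0.20 to 0.0422 for Tbx18, -0.20 to 0.046 for Itgb1 and -0.0484 to 0.14 for Itgb5. None of these had passed the threshold in the reported fit. Of the member values between mutants and controls under alternatives, 152 moved by less than the spread. Of all 178, 9 had the other sign, all of them for Clstn2 in mesenchyme or over all cells and for Trpm3, whose reported differences were small. With 1 library left out Clstn2 ranged from -0.34 to 0.17 in mesenchyme and Trpm3 from -1.14 to 1.61 in mural cells. Mural counts of 42 to 85 cells limit every mural share.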

Other observations

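A single cell of control 1 held 84 of the 240 Mt3 UMIs of that library. It met the immune gate and had 29210 UMIs in all. It carried 387 UMIs of Ctsk, 189 of Acp5, 97 of Mmp9 and 6 of Calcr, which encode proteins of osteoclasts, with 16 of Csf1r and 43 of Tyrobp. It carried no UMI of the macrophage genes C1qa and Mrc1. These genes were chosen after the cell had been seen. The nearness of Mt3 to Calcr and Mmp9 includes the immune sum that holds this cell, and no other library had Mt3 in the immune gate.

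Trpm3 and Clstn2 reached their highest levels in the neuronal gate, which had fewer than 20 cells in every library (18, 9, 8 and 13) and entered no comparison. Trpm3 was at 584, 304, 2461 and 769 CPM there, and Clstn2 at 244, 232, 989 and 450 CPM. Mt3 was at 17.9, 101, 21.0 and 58.0 CPM in this gate, from 2, 2, 1 and 1 positive cells.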
